A study of Mus musculus with 6 samples.

Results

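The axon guidance genes are the semaphorins, plexins, neuropilins, ephrins, Eph receptors, Slits, Robo receptors, netrins and Unc5 receptors. They were chosen by gene symbol, as all protein-coding genes with the family names Sema3 to Sema7, Plxn, Nrp, Efn, Eph, Slit, Robo, Ntn or Unc5. The 41388 genes counted held 67 of them, and 46 were expressed, with a mean of at least 1 CPM, the count scaled to the library's total, over the 6 libraries. RNA sequencing was done on KP2, a C57BL/6J pancreatic cancer line taken from a KPC mouse, a genetically engineered model of pancreatic cancer, at under 10 passages after the line was made and grown in DMEM with foetal bovine serum. The 3 groups were wild-type cells, IRAK4 KO cells and IRAK4 KO cells with rescue, with 2 libraries each. The KO was made with lentiviral plentiCRISPR vectors that carry guide RNAs against Irak4, a kinase that acts below Toll-like receptors and the interleukin-1 receptor. What the rescue cells carried, whether the wild-type cells had received a vector, and whether the KO was a clone or a pool are not described in the labels. Nor is it stated that a group's libraries were grown separately, and the p-values therefore reflect the scatter of these 6 libraries alone, possibly of technical origin.

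Guidance ligands steer growing axons, and many tissues outside the nervous system use them for cell contact, migration and vessel growth. Secreted class 3 semaphorins bind neuropilins, which pair with plexins to signal, whereas most membrane semaphorins bind plexins directly. Ephrins are held in the membrane and bind Eph receptor kinases on a neighbouring cell, Slits bind Robo receptors, and netrins bind Unc5 receptors as well as the receptors Dcc and Neo1. Ductal pancreatic tumours grow along nerves, and several of these families have been studied in them for that reason.

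Irak4 itself had 37.8 and 37.6 normalised CPM in the wild-type libraries, 20.4 and 21.7 in the KO libraries and 491 and 211 in the rescue libraries. Normalised CPM is the CPM over a library size scaled by the TMM method. The KO libraries lay below the wild-type libraries, but the difference did not pass the test (log2 fold change -0.84, SE 0.33, adjusted p = 0.057), whereas the rescue was above both the KO (log2 4.06, adjusted p = 2.3e-04) and the wild type (log2 3.22, adjusted p = 2.1e-05). Without rescue library 1 or 2 the lower Irak4 of the KO passed (adjusted p = 1.7e-07 and 7.5e-07, log2 -0.85 and -0.84), as it did in the fit to only the groups compared (4.2e-07) and without a filter (2.3e-10). Without rescue library 1 the rescue of Irak4 stood log2 3.33 above the KO and log2 2.48 above the wild type. Total counts ran from 7605328 to 11505983 per library. Markers of the labelled ductal origin (Krt8, Krt18, Krt19, Cdh1 and Sox9) were abundant, but Krt7 averaged 2.06 normalised CPM in the wild type and 0.04 in the KO, and Epcam had 1 count in all libraries together.

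For 39 of the 46 expressed genes the promoter window from 250 bases before to 50 after the start was read from RefSeq (build GRCm38.p6), 53 windows in all since some genes have more than 1 start. The windows of Efnb3, Ntn1, Plxna1, Plxna4, Sema3b, Sema3f and Sema6a were not matched. The windows were searched on both strands for the kappaB motif (GGGAA, any 3 bases, then CC), bound by the NF-kappaB factors downstream of Irak4, for AP-1 (TGANTCA), for the hypoxia response core ACGTG and for SP1 (GGGCGG). The stretches below, each 120 bases long, before the start and outside annotated exons, belong to 3 genes with a kappaB match (Efnb1, Plxnb2 and Epha7) and to 4 genes whose levels are described in full further on. Each stretch was placed in its window where it held the most motif matches, with kappaB weighted above the others. Its motif content is therefore not that of upstream sequence at large. The Plxnb2 stretch precedes the more downstream of its 2 starts in RefSeq, and the gene span used for counting Plxnb2 reaches neither start. They are written 5′ to 3′ on the gene's strand with motif matches in capitals, and the capitals mark kappaB in Efnb1, kappaB and SP1 in Plxnb2 and Epha7, the hypoxia core and SP1 in Epha4, and SP1 in Nrp1 and Slit2.
Efnb1, chrX:99135865-99135984, plus strand: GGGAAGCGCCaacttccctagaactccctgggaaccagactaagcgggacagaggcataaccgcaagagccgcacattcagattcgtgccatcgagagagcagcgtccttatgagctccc
Plxnb2, chr15:89174008-89174127, minus strand: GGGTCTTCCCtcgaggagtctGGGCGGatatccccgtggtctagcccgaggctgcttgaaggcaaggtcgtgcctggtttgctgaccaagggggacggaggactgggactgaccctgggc
Epha7, chr4:28813011-28813130, plus strand: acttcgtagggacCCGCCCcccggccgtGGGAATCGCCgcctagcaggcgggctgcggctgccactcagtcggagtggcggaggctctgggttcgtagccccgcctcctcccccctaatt
Epha4, chr1:77515123-77515242, minus strand: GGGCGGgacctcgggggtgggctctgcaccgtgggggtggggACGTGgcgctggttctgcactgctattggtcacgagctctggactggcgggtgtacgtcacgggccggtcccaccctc
Nrp1, chr8:128358953-128359072, plus strand: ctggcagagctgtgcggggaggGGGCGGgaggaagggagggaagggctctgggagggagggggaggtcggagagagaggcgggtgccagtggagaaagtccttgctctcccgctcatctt
Slit2, chr5:47983018-47983137, plus strand: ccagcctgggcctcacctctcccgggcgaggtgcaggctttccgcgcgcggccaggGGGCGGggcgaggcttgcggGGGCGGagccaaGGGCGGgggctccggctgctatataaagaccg
Robo1, chr16:72663029-72663148, plus strand: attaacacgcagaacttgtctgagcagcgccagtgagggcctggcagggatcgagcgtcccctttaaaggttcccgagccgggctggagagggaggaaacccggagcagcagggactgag

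The kappaB letters occurred in 6 of the 53 windows, in Efnb1, Epha7, Plxnb2, Sema4c and Sema6c, beside 5.78% of all 32851 windows and 6.94% of the 12147 windows of tested genes. The Epha7 windows that start at 28812881 and 28812895 overlap and hold the same match, which is counted in both. AP-1 letters occurred in 3 windows (Sema4c, Sema4d and Sema6b), beside 5.31% of the windows of tested genes. The hypoxia core occurred in 11 windows of 10 genes, beside 25.7%, and SP1 in 42 windows of 33 genes, beside 63.0%. No match of a motif overlapped a match of another in these windows. The printed Robo1 stretch held none of the 4 motifs. Of the 5 genes with kappaB letters, Efnb1 and Plxnb2 fell in the KO, Epha7 rose, and Sema4c (log2 -0.31) and Sema6c (log2 -0.38) did not pass the test. These matches describe letters in a window and not sites bound in the cells.

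Levels of different genes were compared per kilobase of the listed gene length, as the mean normalised CPM per kilobase. Plxnb2, a receptor for class 4 semaphorins, was the highest guidance gene at 131 per kilobase over the 6 libraries (180.2 in the wild type, 104 in KO cells and 109 in the rescue). Epha2, an Eph receptor of epithelial cells, followed at 82.6, then Unc5b, a netrin receptor, at 77.1, the secreted semaphorin Sema3c at 49.5, Ephb4 at 44.5, Efnb2 at 27.1 and Efna1 at 20.3. Sema3b at 0.32, and Slit2 and Sema4d at 0.42 each, were the lowest of the 46. Within their families, Plxnb2 made up 66.7% of the summed plexin level, Epha2 50.8% of the Eph receptors, Sema3c 64.0% of the class 3 semaphorins and Unc5b 97.3% of the Unc5 receptors. The neuropilins changed rank among the 46 genes, from 19 in the wild type to 8 in the KO for Nrp2 and from 23 to 6 for Nrp1. Robo1 stood at rank 40 in the wild type, 26 in KO cells and 27 in the rescue.

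**Figure D1:**
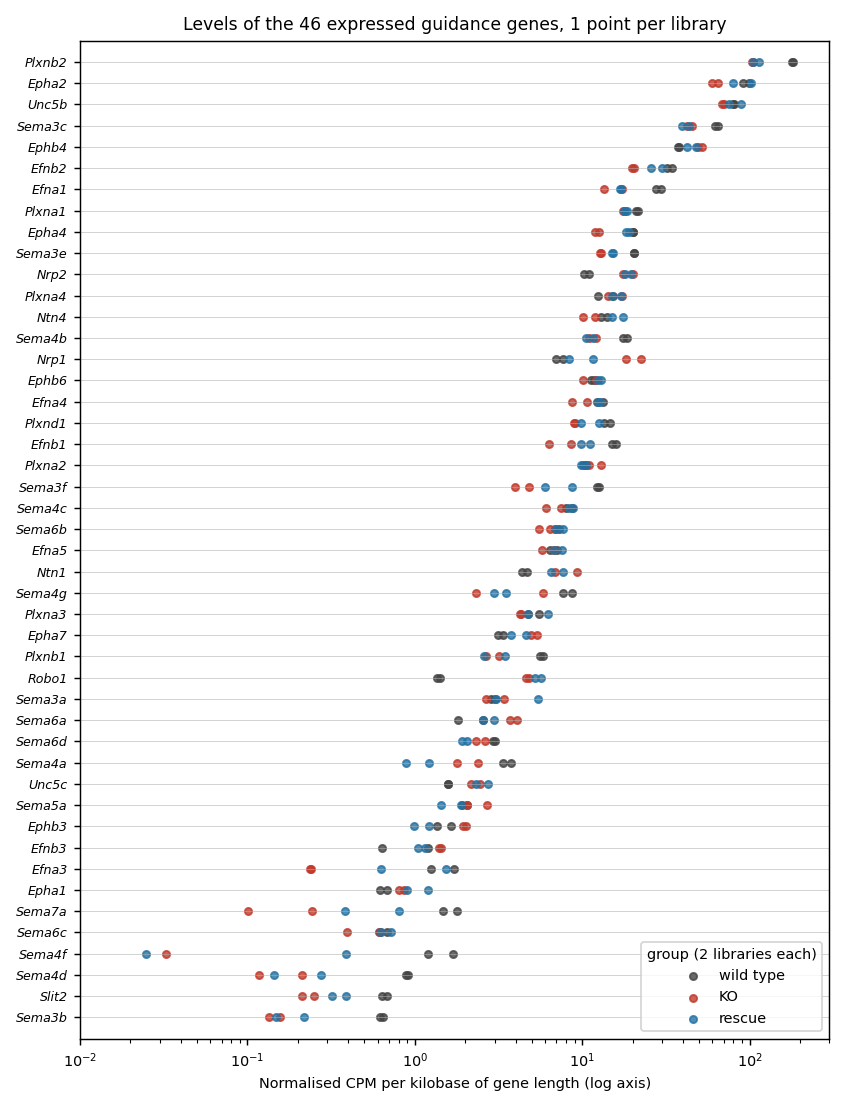
Level of each of the 46 expressed guidance genes in each library, as normalised CPM per kilobase of gene length on a log axis, with 1 point per library coloured by group and genes ordered by their mean; the point of Sema4f in KO library 2, at 0 counts, is not drawn. Plxnb2, Epha2 and Unc5b stand at the top in all 3 groups, and the wild-type points of Robo1, Nrp1 and Nrp2 lie to the left of the KO points.

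The 21 guidance genes under 1 CPM were not tested, since none passed the count filter. Epha3, Epha6, Ephb1, Robo4, Sema5b, Slit3 and Unc5a had no count in any library, and the other 14 had at most 29 counts over the 6 libraries. Those nearest below the threshold were Efna2 at 0.502, Plxnc1 at 0.318 and Plxnb3 at 0.316 mean CPM, and those just above it were Sema3b at 1.33, Efna3 at 2.21 and Sema7a at 2.57. Among those not expressed were 7 of the 14 Eph receptor genes and 3 of the 4 Robo genes, so that Robo1 was the Robo receptor and Slit2 the Slit ligand measured.

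In the KO against the wild type, guidance genes were more often lower than higher. Of the 46, 31 (67.4%) were called in either direction, beside 46.8% of all genes tested. By edgeR's quasi-likelihood test with Benjamini-Hochberg adjustment over 12339 genes, called at an adjusted p under 0.05, 23 of the 46 were lower (50.0%), beside 23.5% of all genes tested, and 8 were higher (17.4%), beside 23.2%. The median log2 fold change of the 46 was -0.31, beside 0.01 for all genes tested. Both KO libraries lay below both wild-type libraries for 28 of the 46 (37.6% of all genes) and above them for 12 (39.1% of all genes). The ligands and receptors differed in their counts, with 17 of 27 ligands lower and 2 higher (median log2 -0.65) against 6 of 19 receptors lower and 6 higher (median 0.18). This difference between ligands and receptors was not tested. Of the 23 lower genes 9 fell at least 2-fold (Sema3b, Sema3f, Sema4d, Sema4f, Sema4g, Sema7a, Efna3, Efnb1 and Slit2), and of the 8 higher genes Nrp1 and Robo1 rose at least 2-fold.

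In the rescue against the KO, 12 of the 46 (26.1%) were called in either direction, beside 14.2% of all genes tested. Of all 46, 8 were higher (17.4%), beside 8.35% of all genes tested, and 4 were lower (8.70%), beside 5.88%. The median log2 fold change was 0.20, beside 0.00 for all genes. Both rescue libraries lay above both KO libraries for 20 of the 46 (29.3% of all genes) and below them for 10 (30.1% of all genes). Both counts depended on single libraries. They fell without KO library 1, KO library 2 or rescue library 2 and rose without rescue library 1. The higher count also fell without either wild-type library. Where a guidance count moved in these fits, the matching count over all genes tested moved in the same direction, so the shifts were not particular to the guidance genes.

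In the rescue against the wild type, 22 of the 46 (47.8%) were called, beside 22.2% of all genes tested. Of all 46, 16 were lower (34.8%), beside 12.0% of all genes tested, and 6 were higher (13.0%), beside 10.2%. The median log2 fold change was -0.09, beside 0.01 for all genes. Both rescue libraries lay below both wild-type libraries for 22 genes (30.4% of all genes) and above them for 11 (31.2% of all genes). Without wild-type library 1 the lower count fell to 8, and without either wild-type library the higher count fell to 3. The comparisons share libraries with each other (the rescue comparisons the rescue libraries, for example), so their counts are not independent. The guidance genes together held 0.475% and 0.467% of the counts in the wild-type libraries, 0.407% and 0.412% in the KO libraries, and 0.405% and 0.434% in the rescue libraries.

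**Figure D2:**
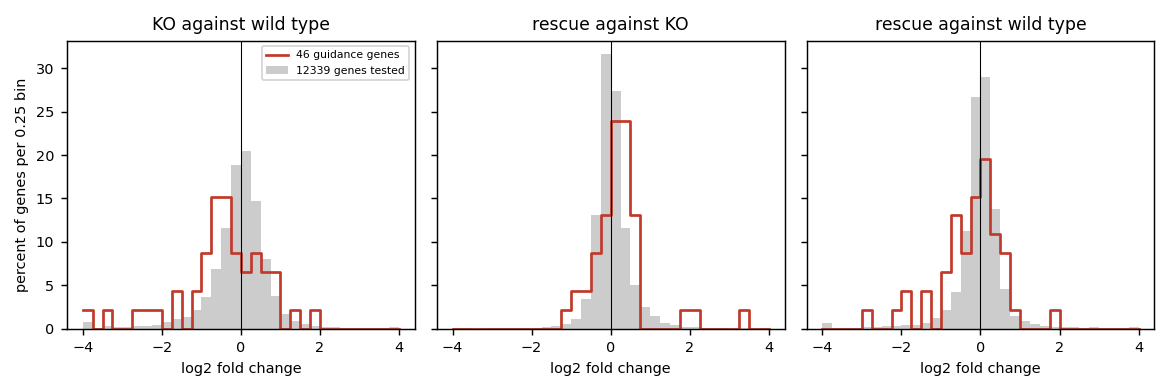
Distribution of the log2 fold changes in 0.25-wide bins, as a percent of genes, for the 46 guidance genes (red line) and the 12339 genes tested (grey bars), in each of the 3 comparisons; values beyond -4 or 4 are placed in the end bins. In the KO against the wild type the median of the guidance genes is -0.31 and that of all genes 0.01.

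**Figure D3:**
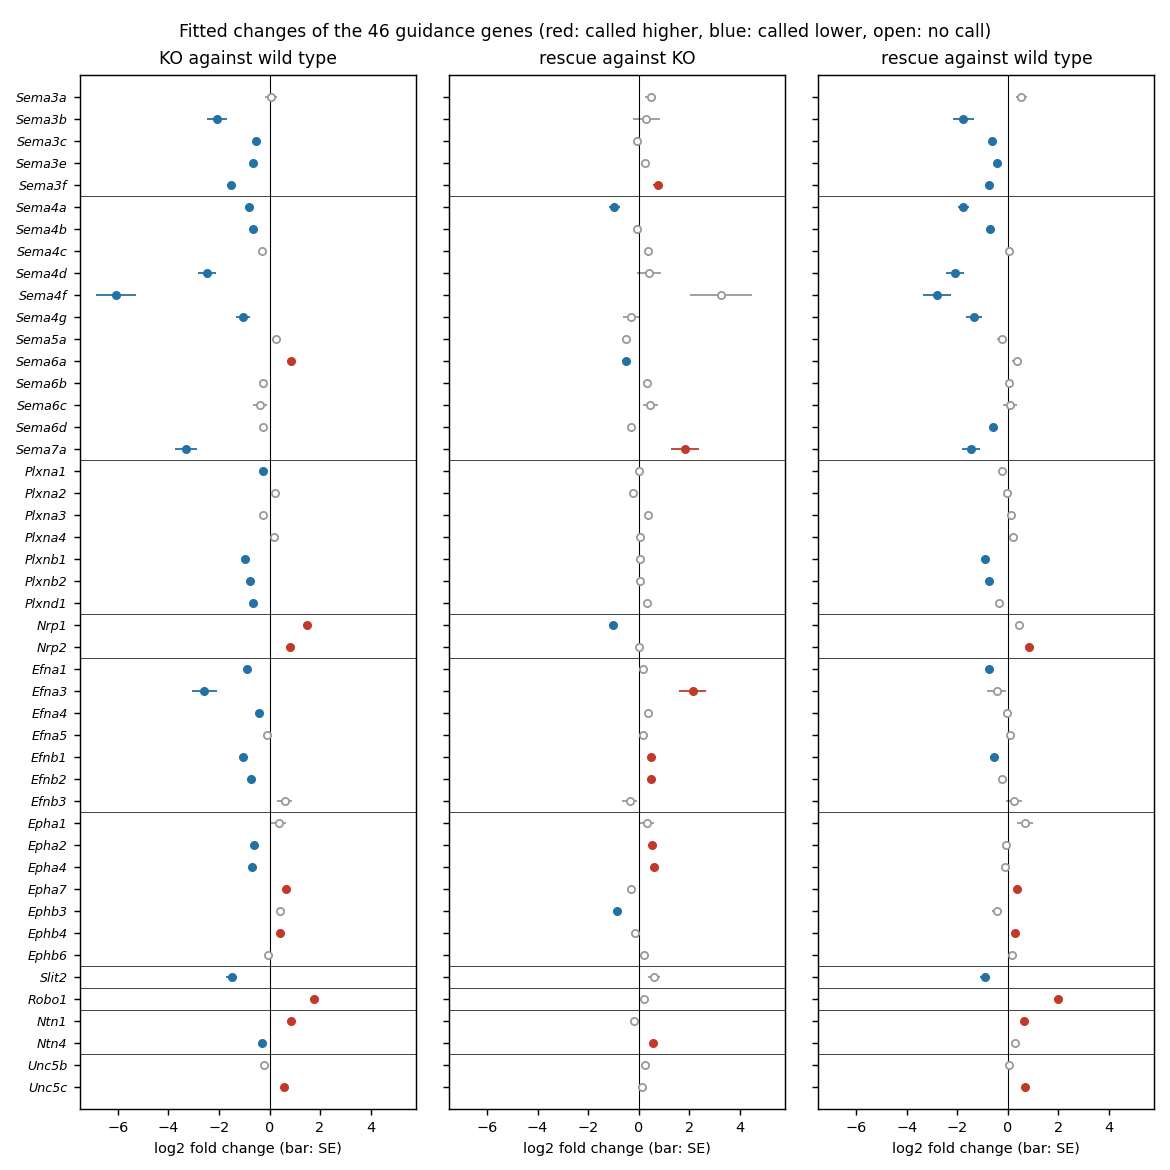
Fitted log2 fold change of each of the 46 guidance genes (point) with its standard error (bar) in the 3 comparisons, red where called higher, blue where called lower and open where not called, with lines between families. Blue points make up 10 of the 17 semaphorins in the KO against the wild type, and both neuropilins are red there.

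Markers of cell types moved between the groups as well. The summed level of the 7 ductal markers ran from 6649 to 6963 normalised CPM in the wild-type libraries, from 3830 to 3928 in the KO and from 4714 to 5582 in the rescue. That sum rests on the keratins Krt8, Krt18 and Krt19, and not every ductal marker took its course. Cdh1, the epithelial cadherin, averaged 377 in the wild type, 204 in KO cells and 119 in the rescue, where it was lower than in the KO (log2 -0.78, adjusted p = 0.011). Krt7 averaged 2.06, 0.04 and 0.07, with the KO and the rescue both called lower than the wild type (adjusted p = 3.5e-04 and 0.002). Of the 8 neuron markers 3 reached 1 CPM (Tubb3, Map2 and Snap25). The 8 summed to 35.9 to 36.5 in the wild type, 33.2 to 39.5 in KO cells and 62.4 to 91.3 in the rescue. In the KO Tubb3 was called lower (log2 -0.44, adjusted p = 0.019) and Map2 higher (log2 0.82, adjusted p = 0.018). Both were called higher in the rescue than in the KO. Map2 averaged 9.58 in the wild type, 16.7 in KO cells and 47.6 in the rescue. Snap25 averaged 2.01, 1.46 and 1.17 and passed no test. Of the 7 endothelial markers only Cdh5 reached 1 CPM; the sum was 3.32 to 4.10 in the wild type, 15.9 to 30.8 in KO cells and 14.8 to 38.1 in the rescue, and Erg was at 0. The fibroblast markers summed to 13.2 to 13.5 in the wild type, 10.1 to 14.9 in KO cells and 18.7 to 23.9 in the rescue, with Dcn and Lum at 0. The immune markers summed to at most 4.81 in any library, with Cd3e, Adgre1 and Lyz2 at 0, and the Schwann and glial markers to at most 3.19, with Gfap and Foxd3 at 0. Fewer cells of a type and less RNA per cell cannot be told apart in bulk libraries, and the part of these markers in the results was not tested.

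Ephrins were mostly lower in the KO. Of the 7 expressed ephrins 5 fell (Efna1, Efna3, Efna4, Efnb1 and Efnb2), beside 23.5% lower among all genes tested, with a median log2 fold change of -0.73. By edgeR 0 ephrins were higher, with 0 at an unadjusted p under 0.05 and 0 by DESeq2. The summed ephrin level per kilobase was 100.3 and 98.0 in the wild-type libraries, 56.8 and 64.3 in the KO libraries and 75.5 and 79.3 in those of the rescue, so the rescue libraries lay between the other two groups. Efnb1 (ENSMUSG00000031217, chrX:99136130-99148991), a transmembrane ephrin, had 54.8 and 51.8 normalised CPM in the wild type, 21.9 and 29.4 in the KO libraries and 38.4 and 33.8 in those of the rescue. The 3 groups did not overlap for Efnb1, which fell by 1.07 on the log2 scale in the KO (SE 0.13, adjusted p = 8.5e-05). It rose in the rescue against the KO (log2 0.51, SE 0.14, adjusted p = 0.035) and was still below the wild type (log2 -0.56, SE 0.13, adjusted p = 0.011).

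Efnb2 (ENSMUSG00000001300, chr8:8617434-8660773), a transmembrane ephrin also known from arteries, had 139.5 and 148 normalised CPM in the wild type, 85.5 and 88.3 in the KO libraries and 112 and 130.2 in those of the rescue. Both KO libraries were the lowest of the 6, and Efnb2 fell in the KO (log2 -0.73, SE 0.09, adjusted p = 1.0e-04) and rose in the rescue against the KO (log2 0.48, SE 0.09, adjusted p = 0.010). The rescue did not pass against the wild type (log2 -0.25, adjusted p = 0.076). Efnb3, the remaining ephrin-B gene, had 2.02 and 3.80 in the wild type, 4.42 and 4.58 in the KO libraries and 3.67 and 3.32 in those of the rescue, and passed no test (adjusted p = 0.123 in the KO). Without wild-type library 2 Efnb3 passed in the KO (log2 1.15, adjusted p = 0.037), and without rescue library 2 Efnb2 passed as lower in the rescue than in the wild type (log2 -0.36, adjusted p = 0.0090). The rise of Efnb2 in the rescue did not pass without KO library 1 (adjusted p = 0.066) or 2 (0.076), nor did that of Efnb1 without KO library 1 (0.249), without either wild-type library (0.069 and 0.070), in the fit to only the groups compared (0.071) or by DESeq2 (0.054), while the lower Efnb1 of the rescue against the wild type did not pass without wild-type library 1 (0.098) or 2 (0.056).

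Efna1, Efna3 and Efna4, ephrins anchored by a glycolipid, lie next to each other on chromosome 3, with 32.8 kilobases between Efna1 and Efna3 and 10.4 between Efna3 and Efna4. All 3 were lower in the KO. Efna1 (chr3:89271733-89281142) had 53.8 and 50.4 normalised CPM in the wild type, 24.8 and 31.6 in the KO libraries and 31.4 and 30.8 in those of the rescue. It fell in the KO (log2 -0.90, SE 0.12, adjusted p = 1.3e-04), and the rescue, within the range of the KO libraries, also stayed below the wild type (log2 -0.74, SE 0.12, adjusted p = 0.001). Efna3 (chr3:89313899-89322965) had 4.15 and 3.02 in the wild type, 0.584 and 0.572 in the KO libraries and 1.52 and 3.72 in those of the rescue. It fell in the KO (log2 -2.59, SE 0.49, adjusted p = 0.001) and rose in the rescue against the KO (log2 2.14, SE 0.53, adjusted p = 0.024). Rescue library 2 lay within the wild-type range, and rescue library 1 below it. Without KO library 1, KO library 2 or rescue library 2 this rise of Efna3 did not pass (adjusted p = 0.125, 0.130 and 0.249, with log2 1.37 without rescue library 2).

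Efna4 (chr3:89333390-89338028) had 21.3 and 19.7 normalised CPM in the wild type, 13.9 and 17.0 in the KO libraries and 20.4 and 19.8 in those of the rescue, a fall in the KO of log2 -0.41 (SE 0.14, adjusted p = 0.030). Both KO libraries were the lowest, and the rescue libraries lay within the wild-type range. The call for Efna4 was lost without wild-type library 1 (adjusted p = 0.170), wild-type library 2 (0.075) or KO library 1 (0.234), and by DESeq2 (0.117). Of the exons of Efna3, 344 bases (14.1% of its length) overlap a gene on the opposite strand, and of Efna4, 168 bases (10.5%), and with the strand setting unknown such reads cannot be assigned to 1 strand. Efna5 had 23.1 to 30.6 normalised CPM over all libraries, its groups overlapped, and it passed no test (adjusted p = 0.566 in the KO).

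Calls among the Eph receptors went both ways. Of the 7 expressed, Epha2 and Epha4 fell in the KO and Epha7 and Ephb4 rose, and 3 did not pass, so that 2 of 7 in each direction stood near the 23.5% lower and 23.2% higher of all genes tested. Epha4 (ENSMUSG00000026235, chr1:77367185-77515088), a receptor that binds ephrins of both classes, had 162 normalised CPM in each wild-type library, 102 and 95.5 in the KO libraries and 148 and 153 in those of the rescue. The KO libraries stood well below the other 4, and Epha4 fell in the KO (log2 -0.71, SE 0.08, adjusted p = 4.5e-05) and rose in the rescue against the KO (log2 0.61, SE 0.08, adjusted p = 0.002). The rescue differed from the wild type by log2 -0.10 (adjusted p = 0.400). Epha2 (ENSMUSG00000006445, chr4:141301240-141329384), the most abundant Eph receptor here, had 464 and 428 in the wild type, 301 and 278 in the KO libraries and 369.9 and 475 in those of the rescue. Both KO libraries were again the lowest, with a fall of log2 -0.62 (SE 0.11, adjusted p = 9.5e-04) and a rise in the rescue against the KO of log2 0.55 (SE 0.11, adjusted p = 0.012). This rise of Epha2 did not pass without KO library 2 (adjusted p = 0.118), and without rescue library 2 the rescue was below the wild type (log2 -0.27, adjusted p = 0.042).

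Epha7, a receptor for ephrin-A ligands, had 33.1 and 31.0 normalised CPM in the wild type, 48.6 and 53.0 in the KO libraries and 45.8 and 37.2 in those of the rescue. It rose in the KO (log2 0.66, SE 0.12, adjusted p = 7.1e-04), and the rescue libraries lay between the other groups. Ephb4, the main partner of Efnb2 in vessels, had 176 and 173 in the wild type, 228 and 243 in the KO libraries and 223 and 197 in those of the rescue. It rose in the KO (log2 0.43, SE 0.09, adjusted p = 0.002), and every KO library exceeded every library of the other groups. Against the wild type the rescue passed narrowly for Epha7 (log2 0.38, adjusted p = 0.043) and Ephb4 (log2 0.27, adjusted p = 0.049), and neither passed when any library other than rescue library 2 was left out (adjusted p from 0.066 to 0.298), nor by DESeq2 (0.141 for Epha7 and 0.102 for Ephb4) or in the fit to only the groups compared (0.069 and 0.075). Ephb4 did not pass with RLE scaling (0.056) or the stricter filter (0.054) either. Without rescue library 1 Epha7 passed as lower in the rescue than in the KO (log2 -0.45, adjusted p = 0.0086).

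Ephb3, an ephrin-B receptor of intestinal and pancreatic epithelium, had 10.3 and 8.49 normalised CPM in the wild type, 12.3 and 12.7 in the KO libraries and 7.60 and 6.25 in those of the rescue. The groups did not overlap. The KO did not pass against the wild type (log2 0.41, adjusted p = 0.070), and the rescue fell against the KO (log2 -0.85, SE 0.19, adjusted p = 0.015). Without either rescue library Ephb3 passed in the KO (adjusted p = 0.040 and 0.037), and its fall in the rescue did not pass without KO library 1 (0.066), KO library 2 (0.098) or rescue library 2 (0.059). Epha1, at 2.02 to 3.92, and Ephb6, a member without kinase activity at 38.1 to 49.1, passed no test (adjusted p = 0.363 and 0.729 in the KO). Epha1 shares 160 exon bases with the opposite-strand gene Zyx, at a mean of 349 CPM. The summed Eph receptor level per kilobase was 175 and 165 in the wild type, 144 in each KO library, and 166 and 181 in the rescue.

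**Figure D4:**
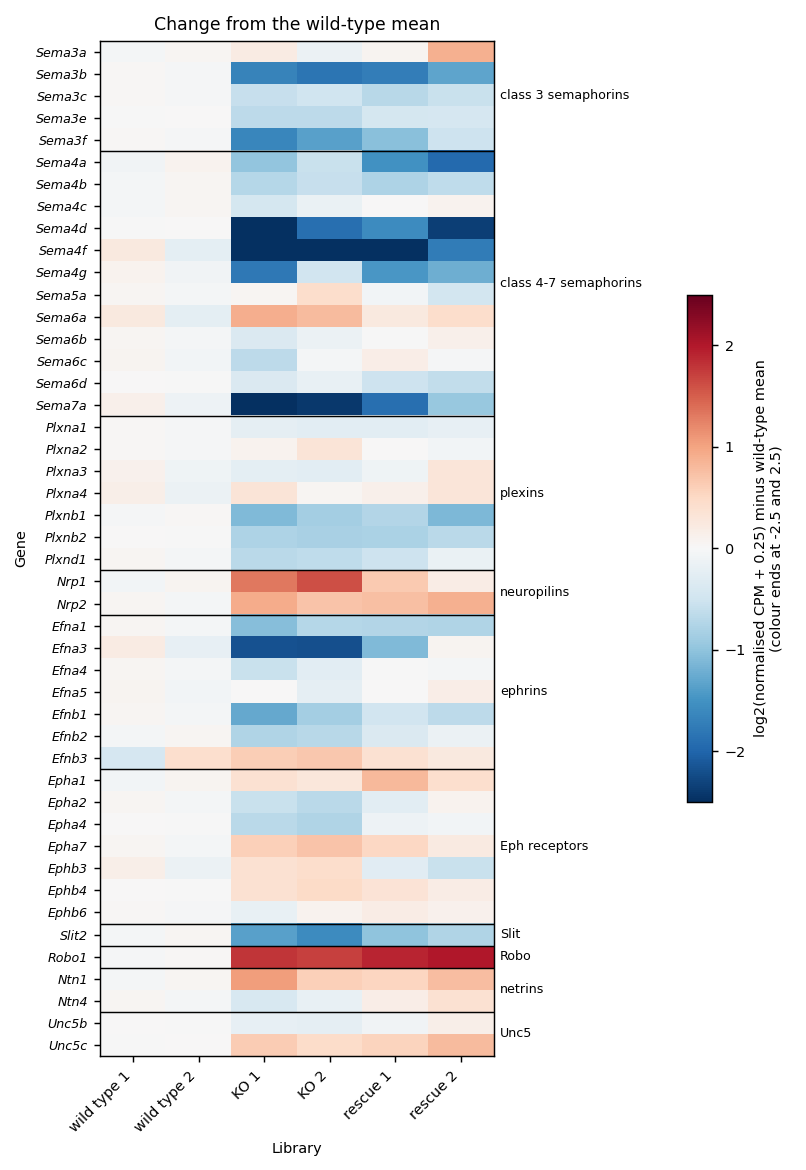
Change of each of the 46 guidance genes from the wild-type mean in each library, as the difference of log2(normalised CPM + 0.25), with colour ends at -2.5 and 2.5 and genes grouped by family. The KO columns are below the wild-type mean for most semaphorins and ephrins, and above it for Nrp1, Nrp2 and Robo1.

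The secreted class 3 semaphorins fell in the KO as well, 4 of the 5 expressed (Sema3b, Sema3c, Sema3e and Sema3f), beside 23.5% lower among all genes tested. By edgeR 0 were higher, with 0 at an unadjusted p under 0.05 and 0 by DESeq2. All 4 were still below the wild type in the rescue, beside 12.0% of all genes tested. Their summed level per kilobase was 101 and 98.4 in the wild-type libraries, 62.9 and 65.5 in the KO libraries and 63.7 and 72.8 in those of the rescue. Sema3c (ENSMUSG00000028780, chr5:17574281-17730268), the most abundant of the class, had 462 and 444 normalised CPM in the wild type, 303 and 321 in the KO libraries and 281 and 309 in those of the rescue. It fell in the KO (log2 -0.54, SE 0.08, adjusted p = 3.7e-04), and the rescue libraries overlapped those of the KO (log2 -0.08, adjusted p = 0.571) and lay below the wild type (log2 -0.62, SE 0.09, adjusted p = 4.1e-04). Sema3e (chr5:14025276-14256689), the ligand of Plxnd1, had 154 in each wild-type library, 98.3 and 97.2 in the KO libraries and 114 and 115 in those of the rescue. The 3 groups stood apart for Sema3e, with log2 -0.65 in the KO (SE 0.08, adjusted p = 6.5e-05) and log2 -0.42 in the rescue against the wild type (SE 0.08, adjusted p = 0.003). The rescue did not pass against the KO (log2 0.23, adjusted p = 0.076).

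Sema3f (ENSMUSG00000034684, chr9:107681502-107710475), a ligand that binds Nrp2, had 43.0 and 41.4 normalised CPM in the wild type, 13.4 and 16.4 in the KO libraries and 20.4 and 29.4 in those of the rescue. Each group stood apart. Sema3f fell in the KO (log2 -1.51, SE 0.16, adjusted p = 3.1e-05), rose in the rescue against the KO (log2 0.75, SE 0.17, adjusted p = 0.017) and was below the wild type in the rescue (log2 -0.76, SE 0.16, adjusted p = 0.005). The rise of Sema3f in the rescue did not pass without KO library 1 (adjusted p = 0.130), KO library 2 (0.063) or rescue library 2 (0.105), and its comparison with the wild type did not pass without wild-type library 1 (0.055). Sema3b (chr9:107597674-107609229), a neighbour of Sema3f at a distance of 72.3 kilobases and a semaphorin known as a growth suppressor in lung cancer, had 2.73 and 2.63 in the wild type, 0.668 and 0.572 in the KO libraries and 0.633 and 0.931 in those of the rescue. The wild type stood above the other groups, which overlapped (KO log2 -2.07, SE 0.40, adjusted p = 0.001; rescue against wild type log2 -1.76, adjusted p = 0.010). The latter did not pass without wild-type library 1 (adjusted p = 0.083), wild-type library 2 (0.072) or rescue library 1 (0.079), nor by DESeq2 (0.096). Sema3a, the classical repellent ligand of Nrp1, had 17.2 to 21.9 in the wild type and KO, and 19.9 and 35.1 in the rescue, and passed no test (adjusted p = 0.855 in the KO and 0.113 in the rescue against wild type), but without rescue library 1 Sema3a passed as higher in the rescue than in the wild type (log2 0.88, adjusted p = 1.4e-04) and the KO (log2 0.83, adjusted p = 1.9e-04).

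Of the 12 expressed membrane semaphorins of classes 4 to 7, 6 fell in the KO (Sema4a, Sema4b, Sema4d, Sema4f, Sema4g and Sema7a) and Sema6a rose, beside 23.5% lower and 23.2% higher among all genes tested. Class 4 accounted for 5 of the 6 falls among its 6 genes. Sema4b, the largest part of the summed level at 29.8%, had 95.0 and 101 normalised CPM in the wild type, 59.3 and 65.3 in the KO libraries and 57.4 and 63.0 in those of the rescue. The wild type stood above both other groups, which overlapped (KO log2 -0.65, SE 0.09, adjusted p = 1.8e-04; rescue against wild type log2 -0.70, SE 0.09, adjusted p = 3.3e-04). Sema4d (CD100), the ligand of Plxnb1, had 5.69 and 5.85 in the wild type, 0.751 and 1.37 in the KO libraries and 1.77 and 0.931 in those of the rescue. The same order held for Sema4d, with log2 -2.49 in the KO (SE 0.35, adjusted p = 1.9e-04) and log2 -2.07 in the rescue against the wild type (SE 0.36, adjusted p = 0.002).

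Sema4f (chr6:82911885-82939769) had 8.65 and 6.15 normalised CPM in the wild type, 0.167 and 0 in the KO libraries and 0.127 and 1.99 in those of the rescue. It had 136 counts in the wild type and 2 in the KO, a level 75.4-fold lower with a 95% counting interval of 20.5 to 629 that covers counting error only (fitted log2 -6.06, adjusted p = 1.1e-04). Without KO library 2 the fitted value of Sema4f was log2 -5.35 (adjusted p = 0.0020). Without KO library 1 the KO had no count left, and the fitted log2 of -8.98 (adjusted p = 0.0022) then depends on the prior count and gives no size. The 16 counts in the rescue, 15 of them in rescue library 2, gave a level 10.8-fold that of the KO (interval 2.53 to 96.4), which did not pass the test (adjusted p = 0.099) and passed without rescue library 1 (5.2e-04). Against the wild type the rescue was lower (log2 -2.80, SE 0.55, adjusted p = 0.004), with log2 -5.72 without rescue library 2 and log2 -1.88 without rescue library 1, and did not pass without wild-type library 1 (adjusted p = 0.054) or by DESeq2 (0.221). Sema7a, a semaphorin anchored by a glycolipid that binds integrins and Plxnc1, had 5.93 and 4.88 in the wild type, 0.334 and 0.801 in the KO libraries and 1.27 and 2.66 in those of the rescue. The groups did not overlap. Sema7a fell in the KO (log2 -3.30, SE 0.44, adjusted p = 1.4e-04), rose in the rescue against the KO (log2 1.84, SE 0.55, adjusted p = 0.047) and was lower in the rescue than in the wild type (log2 -1.46, SE 0.37, adjusted p = 0.016). The rise in the rescue did not pass when any library other than rescue library 1 was left out (adjusted p from 0.083 to 0.356), by DESeq2 (0.066) or in the fit to only the groups compared (0.079). The comparison of Sema7a with the wild type did not pass without wild-type library 1 (0.134), wild-type library 2 (0.063) or rescue library 1 (0.086), nor by DESeq2 (0.057). Leaving out KO library 2 moved the fall in the KO to log2 -3.96 and the rise in the rescue to log2 2.49, and leaving out rescue library 2 moved that rise to log2 1.23 and the comparison with the wild type to log2 -2.07.

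Sema4a had 18.1 and 20.4 normalised CPM in the wild type, 9.60 and 12.9 in the KO libraries and 6.58 and 4.79 in those of the rescue, so the rescue lay lowest. It fell in the KO (log2 -0.79, SE 0.18, adjusted p = 0.004), was lower again in the rescue than in the KO (log2 -0.96, SE 0.22, adjusted p = 0.017) and lower in the rescue than in the wild type (log2 -1.76, SE 0.21, adjusted p = 1.4e-04). Sema4a did not pass in the KO without KO library 1 (adjusted p = 0.055), nor in the rescue against the KO without KO library 2 (0.129) or rescue library 2 (0.073). Sema4g had 42.4 and 37.4 in the wild type, 11.3 and 28.5 in the KO libraries and 14.4 and 17.0 in those of the rescue. The KO libraries of Sema4g differed from each other, and the wild type stood above all others (KO log2 -1.04, SE 0.28, adjusted p = 0.010; rescue against wild type log2 -1.34, SE 0.30, adjusted p = 0.009). Without KO library 2 the fall of Sema4g in the KO was log2 -1.81, without KO library 1 the rescue passed as lower than the KO (log2 -0.85, adjusted p = 0.021), and without wild-type library 1 neither the KO (0.080) nor the rescue (0.074) passed against the wild type. By DESeq2 neither Sema4g comparison with the wild type passed (adjusted p = 0.124 in the KO and 0.068 in the rescue).

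Sema6a, which binds A-type plexins, was the semaphorin that rose, with 22.5 and 15.9 normalised CPM in the wild type, 36.0 and 32.7 in the KO libraries and 22.4 and 25.9 in those of the rescue. Both KO libraries were the highest (log2 0.85, SE 0.16, adjusted p = 9.6e-04), and Sema6a fell in the rescue against the KO (log2 -0.51, SE 0.15, adjusted p = 0.048), a call lost without KO library 1 (adjusted p = 0.229), KO library 2 (0.132) or rescue library 1 (0.060), and by DESeq2 (0.103). Sema6d had 31.7 and 30.9 in the wild type, 24.4 and 27.6 in the KO libraries and 21.8 and 20.2 in those of the rescue. The groups did not overlap, the KO did not pass against the wild type (log2 -0.27, adjusted p = 0.070), and the rescue was lower than the wild type (log2 -0.57, SE 0.12, adjusted p = 0.006; 0.056 without wild-type library 1). Sema4c (23.1 to 33.5 over the libraries), Sema5a (15.4 to 29.3), Sema6b (21.9 to 30.7) and Sema6c (2.34 to 4.30) passed no test. Of the exon bases of Sema6c, 2843 (47.9%) are shared on the same strand with a gene that had 0 counts. How reads there were assigned is not described, so the level of Sema6c may be too low. Without either rescue library Sema4c (adjusted p = 0.022 and 0.028) and Sema6d (0.036 and 0.042) passed as lower in the KO, as did Sema4c without KO library 2 (0.032). Without rescue library 1, Sema4c (adjusted p = 0.044) and Sema6b (0.049) passed as higher and Sema5a (0.0039) as lower in the rescue than in the KO.

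Of the 7 expressed plexins, the signalling receptors for semaphorins, 4 fell in the KO (Plxna1, Plxnb1, Plxnb2 and Plxnd1), beside 23.5% lower among all genes tested, with a median log2 fold change of -0.26. The call for Plxna1 was lost when any 1 wild-type or KO library was left out. By edgeR 0 were higher, with 1 at an unadjusted p under 0.05 and 0 by DESeq2. Their summed level per kilobase was 255 and 247 in the wild-type libraries, 167 and 164 in the KO libraries and 166 and 180.4 in those of the rescue. Plxnb2 (ENSMUSG00000036606, chr15:89155549-89171120), which makes up most of that sum, had 1292 and 1274 normalised CPM in the wild type, 749 and 732 in the KO libraries and 742 and 808 in those of the rescue. The stretch with a kappaB match printed above for Plxnb2 lies upstream of this counted span, at a RefSeq start outside it. The wild type stood above both other groups, which overlapped. Plxnb2 fell in the KO (log2 -0.79, SE 0.08, adjusted p = 3.1e-05) and was lower in the rescue than in the wild type (log2 -0.73, SE 0.08, adjusted p = 1.2e-04). Plxnb1, the receptor of Sema4d, showed the same order, with 50.0 and 52.4 in the wild type, 23.7 and 28.5 in the KO libraries and 30.8 and 23.3 in those of the rescue. It fell in the KO (log2 -0.98, SE 0.13, adjusted p = 1.5e-04) and was lower in the rescue than in the wild type (log2 -0.92, SE 0.14, adjusted p = 7.3e-04). Between the rescue and the KO 0 of the 7 plexins passed by edgeR, beside 14.2% of all genes tested, and 0 by DESeq2. With 7 genes, 0 calls stand near that share. At an unadjusted p under 0.05 there were 2 higher and 1 lower in the rescue.

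Plxnd1, the receptor of Sema3e, had 106 and 97.7 normalised CPM in the wild type, 64.0 and 65.0 in the KO libraries and 70.6 and 90.9 in those of the rescue. The groups did not overlap, and Plxnd1 fell in the KO (log2 -0.66, SE 0.11, adjusted p = 6.5e-04). Its rescue did not pass against the wild type (adjusted p = 0.055) or the KO (0.081), but passed against the wild type without rescue library 2 (log2 -0.52, adjusted p = 7.7e-04) and against the KO without rescue library 1 (log2 0.50, adjusted p = 8.9e-04). Of the 4 A-type plexins, which signal with neuropilins, Plxna1 was the one called. Of its exon bases, 970 (10.7%) overlap a gene on the opposite strand. Plxna1 had 195 and 188 in the wild type, 164 and 159 in the KO libraries and 160.3 and 167 in those of the rescue, a fall in the KO of log2 -0.25 (SE 0.08, adjusted p = 0.022) that did not pass without any 1 of the wild-type or KO libraries (adjusted p from 0.071 to 0.146). Without rescue library 2 Plxna1 also passed as lower in the rescue than in the wild type (log2 -0.26, adjusted p = 0.049). Plxna2 at 148 to 195, Plxna3 at 33.6 to 49.5 and Plxna4 at 160.0 to 222 passed no test. Without either rescue library Plxna2 (adjusted p = 0.045 and 0.042) passed as higher and Plxna3 (0.036 and 0.043) as lower in the KO. Plxna2 also passed there without KO library 1 (0.049), and without rescue library 1 Plxna2 (0.046) was lower and Plxna3 (0.0016) higher in the rescue than in the KO.

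Both neuropilins, the co-receptors that bind class 3 semaphorins and VEGF, rose in the KO, where 4 of the 7 plexins and 4 of the 5 class 3 semaphorins fell. Of all genes tested 23.2% were higher and 23.5% lower there. These family counts rest on few genes, and the contrast between the families was not tested. Their summed level per kilobase was 18.1 and 17.9 in the wild-type libraries, 38.5 and 40.0 in the KO libraries and 29.6 and 27.9 in those of the rescue. Nrp1 (ENSMUSG00000025810, chr8:128359073-128505462) had 41.5 and 45.2 normalised CPM in the wild type, 108 and 133 in the KO libraries and 68.5 and 49.3 in those of the rescue. The libraries of the 3 groups were apart, with the KO highest. Nrp1 was 2.77-fold higher in the KO (log2 1.47, SE 0.15, adjusted p = 1.8e-05) and fell in the rescue against the KO (log2 -1.03, SE 0.14, adjusted p = 0.002). The rescue did not pass against the wild type (log2 0.44, adjusted p = 0.058), but did without rescue library 2 (log2 0.66, adjusted p = 5.5e-04). Nrp2 (ENSMUSG00000025969, chr1:62703285-62818695) had 131 and 121 in the wild type, 239 and 206 in the KO libraries and 214 and 232 in those of the rescue. It rose in the KO (1.77-fold, log2 0.83, SE 0.10, adjusted p = 5.2e-05) and the rescue libraries lay within the range of the KO (log2 -0.00 against the KO, adjusted p = 0.989; log2 0.82 against the wild type, SE 0.10, adjusted p = 1.2e-04).

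**Figure D5:**
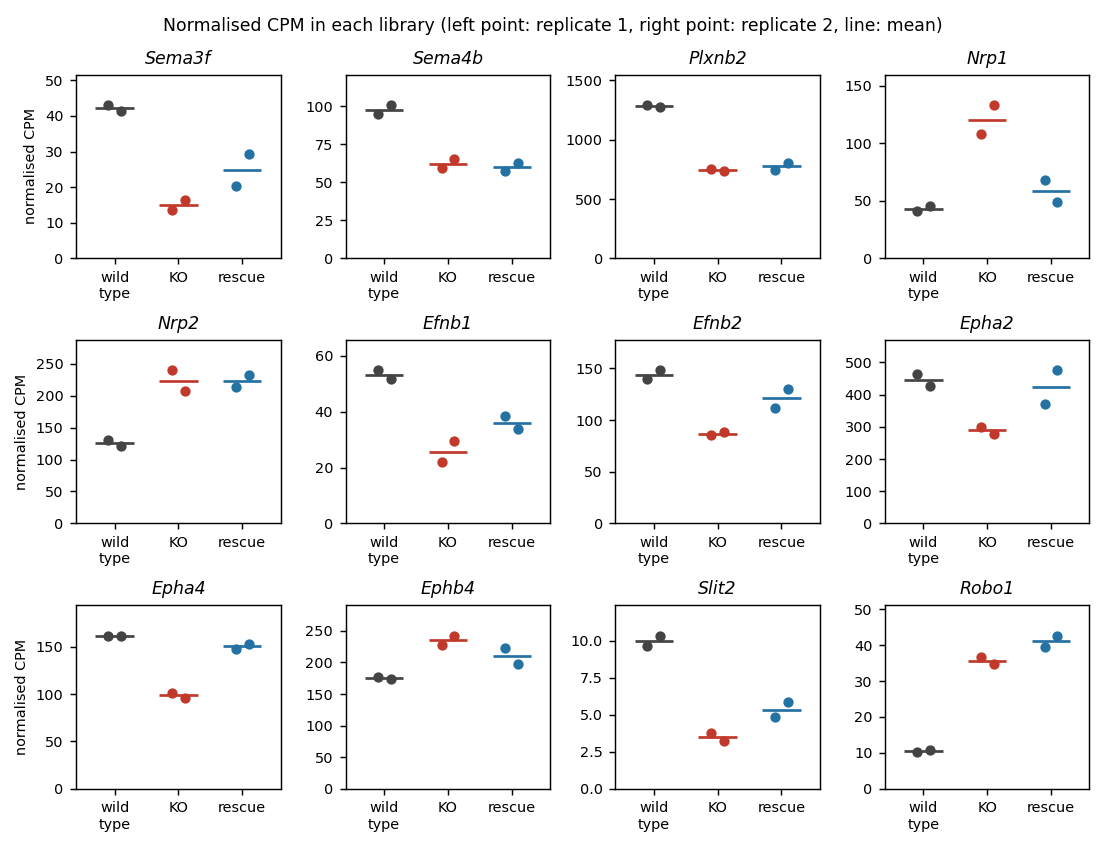
Normalised CPM in each library for 12 guidance genes, with replicate 1 on the left and replicate 2 on the right of each group, a line at the group mean and each axis starting at 0. The KO points are the lowest for Efnb1, Efnb2, Epha2, Epha4, Sema3f and Slit2, whereas for Robo1, Nrp1, Nrp2 and Ephb4 the wild-type points are the lowest.

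The Slit ligand and the Robo receptor measured here moved in opposite directions in the KO. Slit2 (ENSMUSG00000031558, chr5:47983155-48306282), a secreted repellent, had 9.60 and 10.3 normalised CPM in the wild type, 3.75 and 3.20 in the KO libraries and 4.81 and 5.85 in those of the rescue. The groups did not overlap, and Slit2 was 2.84-fold lower in the KO (log2 -1.51, SE 0.21, adjusted p = 1.7e-04). The rescue was below the wild type (log2 -0.91, SE 0.21, adjusted p = 0.009) and did not pass against the KO (log2 0.60, adjusted p = 0.115). Robo1 (ENSMUSG00000022883, chr16:72663149-73046095), the receptor of Slit2, had 10.2 and 10.7 in the wild type, 36.6 and 34.8 in the KO libraries and 39.6 and 42.7 in those of the rescue. All 4 libraries of the KO and the rescue stood more than 3-fold above the wild-type libraries. Robo1 rose 3.41-fold in the KO (log2 1.77, SE 0.12, adjusted p = 1.5e-06) and was 3.92-fold higher in the rescue than in the wild type (log2 1.97, SE 0.12, adjusted p = 8.6e-07). The rescue and the KO differed by log2 0.20 (adjusted p = 0.217). The lower Slit2 of the rescue did not pass against the wild type without wild-type library 1 (adjusted p = 0.051) or 2 (0.079), nor by DESeq2 (0.057).

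The netrins split as well. Ntn1, the founding netrin and a ligand of Unc5b and Unc5c, had 27.4 and 29.4 normalised CPM in the wild type, 58.4 and 43.2 in the KO libraries and 41.0 and 48.3 in those of the rescue. The wild type lay below the other groups, which overlapped, and Ntn1 rose in the KO (log2 0.85, SE 0.14, adjusted p = 6.0e-04) and in the rescue against the wild type (log2 0.65, SE 0.15, adjusted p = 0.009). The latter did not pass without wild-type library 1 (adjusted p = 0.090) or 2 (0.053). Ntn4, a basement membrane netrin, had 52.6 and 48.7 in the wild type, 38.0 and 44.4 in the KO libraries and 56.5 and 65.8 in those of the rescue. All 3 groups were apart, with the rescue highest. Ntn4 fell in the KO (log2 -0.30, SE 0.11, adjusted p = 0.045) and rose in the rescue against the KO (log2 0.57, SE 0.11, adjusted p = 0.009). The fall of Ntn4 did not pass without wild-type library 1 (adjusted p = 0.236), wild-type library 2 (0.088) or KO library 1 (0.297), nor by DESeq2 (0.108), and the rise did not pass without KO library 1 (0.079). Without rescue library 1 Ntn4 was higher in the rescue than in the wild type (log2 0.37, adjusted p = 0.027).

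Unc5b, the third most abundant guidance gene per length and a receptor that can trigger cell death without its ligand, had 475 and 465 normalised CPM in the wild type, 409 and 399.6 in the KO libraries and 440.1 and 519.6 in those of the rescue. The KO libraries were the lowest, but Unc5b passed no test (log2 -0.22, adjusted p = 0.075 in the KO). Without either rescue library Unc5b passed as lower in the KO (adjusted p = 0.018 and 0.020), and without rescue library 1 as higher in the rescue than in the KO (log2 0.36, adjusted p = 0.0051). Unc5c had 19.1 and 19.2 in the wild type, 29.8 and 26.5 in the KO libraries and 28.2 and 33.2 in those of the rescue. It rose in the KO (log2 0.56, SE 0.13, adjusted p = 0.004) and in the rescue against the wild type (log2 0.68, SE 0.13, adjusted p = 0.003), and the KO and rescue overlapped. The rise of Unc5c in the KO had an adjusted p of 0.050 without KO library 1, just over the threshold.

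Set side by side, the genes took different courses in the rescue. Of the 12 genes called between the rescue and the KO, Sema3f, Sema7a, Efna3, Efnb1, Efnb2, Epha2, Epha4 and Ntn4 were lower in the KO and higher in the rescue than in the KO. Sema6a and Nrp1 were higher in the KO and lower in the rescue than in the KO. Sema4a fell in the KO and was lower still in the rescue, and Ephb3 was called lower in the rescue only. Semaphorins called lower than the wild type in KO and rescue alike were Sema3b, Sema3c, Sema3e, Sema3f, Sema4a, Sema4b, Sema4d, Sema4f, Sema4g and Sema7a. Plxnb1, Plxnb2, Slit2, Efna1 and Efnb1 were likewise called lower in both of these comparisons with the wild type. Epha7, Ephb4, Nrp2, Robo1, Ntn1 and Unc5c were called higher in both. Sema3f, Sema7a and Efnb1 thus belonged to both sets, since their rescue was above the KO and still below the wild type. Of the 12 calls between the rescue and the KO, those for Epha4 and Nrp1 passed under every alternative in which they were tested, compared with 25 of the 31 calls of the KO and 11 of the 22 calls of the rescue against the wild type.

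Other genes of the pathway were read from 2 lists. Of 36 further guidance ligands, receptors and co-receptors, 19 were tested, of which 10 were lower and 3 higher in the KO (median log2 -0.35), beside 23.5% lower and 23.2% higher among all genes tested. By DESeq2 1 was higher in the KO. Flt4, the lymphatic VEGF receptor that Nrp2 assists, had a mean of 17.9 ± 3.52 normalised CPM (SD, n = 2) in the wild type, 0.989 ± 0.219 in KO cells and 1.44 ± 0.600 in the rescue, a fall in the KO of log2 -4.18 (adjusted p = 1.7e-06). Neo1, a netrin and repulsive guidance molecule receptor, rose from 262.6 ± 1.28 to 495 ± 6.17 in the KO (log2 0.91, adjusted p = 1.2e-05) and was at 402 ± 30.0 in the rescue, below the KO (log2 -0.30, adjusted p = 0.035; 0.080 to 0.179 when any library other than rescue library 1 was left out). Itgb1, the integrin beta-1 subunit, fell in the KO (log2 -0.87, adjusted p = 8.3e-05) and rose in the rescue against it (log2 0.62, adjusted p = 0.005), and Flt1, a VEGF receptor, fell in the KO (log2 -0.90, adjusted p = 8.9e-05). In the rescue against the KO 2 of the 19 were higher, Itgb1 and Rtn4 (log2 0.32, adjusted p = 0.033), and 2 lower, Neo1 and Flrt3 (log2 -0.36, adjusted p = 0.027), small counts near the 8.35% higher and 5.88% lower of all genes tested. In the fit to only the groups compared Neo1 (0.078), Flrt3 (0.053) and Rtn4 (0.066) did not pass, nor did Flrt3 by DESeq2 (0.078), whereas 5 were higher without a filter. Each of these 2 counts fell when any library other than rescue library 1 was left out, and without that library the higher count rose. The counts over all genes tested moved in the same directions. The call of Itgb1 between the rescue and the KO was lost without KO library 2 (adjusted p = 0.065). Against the wild type 1 of the 19 was higher in the rescue (Neo1, log2 0.61, adjusted p = 4.1e-04) and 7 were lower, among them Flt4 (log2 -3.63, adjusted p = 6.7e-06), Flt1 (log2 -0.79, adjusted p = 5.8e-04) and Sdc1 (log2 -0.63, adjusted p = 4.9e-04), beside 10.2% higher and 12.0% lower among all genes tested. The count of 7 was 4 without wild-type library 1 or rescue library 1 or with the stricter filter, which tests fewer genes, and 11 without rescue library 2, and the count of 3 in the KO was 1 without either KO library.

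Of 54 intracellular effectors that act below guidance receptors, 50 were tested, of which 20 were lower and 4 higher in the KO (median log2 -0.18), beside 23.5% lower and 23.2% higher among all genes tested. Rras, a small GTPase that plexins inactivate, averaged 148 normalised CPM in the wild type, 65.1 in KO cells and 105 in the rescue, with log2 -1.18 in the KO (adjusted p = 9.4e-06) and log2 0.70 in the rescue against it (adjusted p = 0.003). Srgap3, a GTPase-activating protein of the Slit and Robo pathway, averaged 113, 35.6 and 77.8, with log2 -1.66 in the KO (adjusted p = 1.6e-05) and 1.12 in the rescue against it (adjusted p = 0.003). Rnd1, a GTPase that binds plexins, fell in the KO (log2 -1.80, adjusted p = 2.0e-05) and rose in the rescue (log2 0.92, adjusted p = 0.012), and Enah, an actin regulator, fell in the KO (log2 -1.05, adjusted p = 1.2e-05) and was lower in the rescue than in the wild type (log2 -0.76, adjusted p = 2.6e-04). In the rescue against the KO 12 effectors were higher, among them Mical1 (log2 0.53, adjusted p = 0.006; 0.055 without KO library 1), and 1, Srgap1, was lower (log2 -0.70, adjusted p = 0.004; 0.051 without KO library 2), beside 8.35% higher and 5.88% lower among all genes tested. The count of 12 fell when any library other than rescue library 1 was left out, as did the higher count over all genes tested. Against the wild type the rescue had 4 effectors higher, among them Gipc1 (log2 0.47, adjusted p = 0.004; 0.064 without wild-type library 1), and 12 lower, among them Mical2 (log2 -0.63, adjusted p = 4.0e-04) and Ptk2 (log2 -0.47, adjusted p = 0.004; 0.051 without wild-type library 1). Of all genes tested 10.2% were higher and 12.0% lower, so the 4 of 50 higher effectors did not exceed that share. The higher count was 2 by DESeq2 and at most 1 without either wild-type library, and the lower count was 3 without wild-type library 1 and 6 without wild-type library 2.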

How the data were processed

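Poly(A) RNA of 6 libraries was sequenced. The submitters' processing notes name bcl2fastq, STAR 2.0.4b, Subread and featureCounts 1.45 with the build GRCm38, and the annotation release and strand setting were not given in the sources used here. The authors deposited raw read counts for each gene, per the file headers, next to CPM and RPKM values. The deposited CPM equalled the count over its file's total (to within 3.3e-11), the deposited RPKM equalled CPM divided by listed length in kilobases (to within 4.7e-11), and both served these checks alone.

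Symbols came from the GENCODE M21 annotation for 40254 of 41388 identifiers. The filterByExpr filter (at least 10 counts, 15 in total) kept 12339 genes. Counts were scaled by TMM and tested in R 4.3.3 with edgeR 4.0.16, by its quasi-likelihood test, in a single fit of the 3 groups over the 6 libraries that left 3 residual degrees of freedom. Benjamini-Hochberg adjustment covered every gene kept. The standard error (SE) is the log2 fold change over the square root of F. Total counts per library ran from 7605328 to 11505983, and replicate libraries differed by more than counting noise. The script was tested on simulated counts. Every expressed member is named, and of each pathway list up to 4 called genes with the smallest adjusted p for each comparison. The members, lists and motifs were chosen with earlier results of these data known. Alternatives were RLE scaling, DESeq2 1.42.0, no filter, a filter of at least 1 CPM in at least 4 libraries, only the groups compared, the replicate number as a block, and leaving out each library. Where 1 library of a group remained, it was assumed to vary like the other groups. Replicates did not scatter equally, with a coefficient of variation of 5.08% between wild-type libraries, 6.08% between KO libraries and 10.5% between rescue libraries. The single fit used a spread shared by the groups. P-values that involve the rescue may therefore be too small. Those of the KO against the wild type may be too large.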

Additional observations from a re-analysis of the deposited data

How the results depend on the processing

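No called guidance gene changed direction under any alternative tried. Leaving out 1 library gave 8 to 10 higher and 19 to 27 lower guidance genes in the KO against the wild type, 2 to 15 higher and 1 to 6 lower in the rescue against the KO, and 3 to 7 higher and 8 to 20 lower in the rescue against the wild type. RLE scaling, DESeq2, both other filters and the fit to only the groups compared kept all 6 counts within 1.5 times of the reported ones; DESeq2 gave 8 higher and 20 lower in the KO, 6 and 3 in the rescue against the KO, and 4 and 11 against the wild type, and the fit without a filter 12 and 5 in the rescue against the KO. By DESeq2, 3 calls of guidance genes in the KO (Efna4, Ntn4 and Sema4g), 3 in the rescue against the KO (Efnb1, Sema6a and Sema7a) and 7 in the rescue against the wild type (Epha7, Ephb4, Sema3b, Sema4f, Sema4g, Sema7a and Slit2) did not pass. In the fit to only the groups compared, Sema4c, Sema6d, Plxna3 and Unc5b also passed as lower and Plxna2 and Ephb3 as higher in the KO. Over all genes, that fit called more in the KO against the wild type (3254 higher and 3371 lower, from 2867 and 2905). It called fewer in the rescue against the KO (667 and 377, from 1030 and 726). Calls of the rescue against the wild type also fell (1006 and 1353, from 1263 and 1481). Whether the wider scatter of the rescue libraries accounts for these shifts was not tested. With the replicate number as a block, 8 guidance genes were higher and 20 lower in the KO. The block gave 6 and 3 in the rescue against the KO, and 4 and 16 against the wild type. The block lost the calls of Efna4, Ntn4 and Plxna1 in the KO and of Efnb1, Sema6a and Sema7a in the rescue against the KO. It also lost those of Epha7 and Ephb4 in the rescue against the wild type. Under RLE scaling Sema4c also passed as lower in the KO, and Plxnd1 as lower in the rescue than in the wild type. Whether same-numbered libraries shared a culture or day is not stated. Their deviations from the group means correlated at 0.0038 (wild type and KO), -0.28 (wild type and rescue) and -0.25 (KO and rescue) over 9593 genes. With 2 libraries per group the deviations of a group mirror each other, so a negative value equally means that differently numbered libraries went together. These correlations therefore cannot show whether libraries of different groups shared a culture or day. The stricter filter left Sema3b and Sema4f untested in every comparison, the fit to the groups compared left them untested in the rescue against the KO, and DESeq2 gave Sema3b no adjusted p there. At this depth the lowest genes were the least precise: Sema4d, Sema3b, Sema7a, Efna3 and Sema4f had the largest standard errors in the KO against the wild type, from 0.35 to 0.79 on the log2 scale.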
